A study of Mus musculus and Homo sapiens with 10 samples.

Results

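Human endogenous retroviruses (ERVs) were examined in RNA-seq of primed human embryonic stem cells (hESCs) with and without vitamin C (vitC). The repeat table of these libraries lists 1355 subfamilies, and the 587 whose class is LTR were taken as the ERV members, whatever their level. By family they were 299 ERV1, 42 ERVK, 121 ERVL, 85 ERVL-MaLR and 40 of other families (Gypsy, families whose name carries a question mark, and a family called LTR). A further 7 subfamilies of the queried class "LTR?" were not counted as members. The members stand for 730458 annotated copies, out of 4595827 copies of all repeats. HERVH-int with the 5 LTR7 names, and HERVK-int with the 4 LTR5 names, were set out within ERV1 and ERVK.

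The study asked how vitC, a cofactor of dioxygenases that remove DNA and histone methylation, changes the expression of transposable elements in pluripotent cells. There was 1 control library, from untreated cells, and 1 library from cells given vitC at 100 µg/ml for 24 h. Both are labelled H9, an established hESC line, and both were grown in KSR/FGF, a serum replacement medium with basic fibroblast growth factor. The study's methods give that medium for H9-NK2, an H9 derivative with doxycycline-inducible KLF2 and NANOG transgenes, and a fibroblast-conditioned medium for H9 itself, while the labels name H9 alone.

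ERVs are remnants of retroviruses that integrated into the germ line. An intact copy has an internal part with the viral genes (names ending in -int) between long terminal repeats (LTRs), which hold the promoter and the polyadenylation signal, and most copies have since recombined to a solitary LTR. ERV1 elements resemble gammaretroviruses, ERVK elements betaretroviruses and ERVL elements spumaviruses, and the MaLR elements are old relatives of ERVL without viral genes of their own. In pluripotent cells most ERVs are silenced by H3K9 methylation set by SETDB1 with TRIM28, and by DNA methylation, but HERVH, with LTR7 as its promoter, is known to be transcribed in primed hESCs, and HERVK with LTR5_Hs in more naive cells.

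Over all subfamilies, the control library held 507528 counts and the vitC library 549711, beside an aligned library size deposited as 8692246 and 9482130. What that size counts is not stated in the sources used here, and it is smaller than the gene reads recovered below. A read with several possible copies is divided among them by expectation maximisation, so counts need not be whole. Each condition has a single library, so replicate error is unknown and no test was possible. Each difference is the log2 ratio of the subfamily's share of all subfamily counts, vitC over control, with an exact 95% interval that covers counting error only. In bulk RNA, fewer cells that express an element and less RNA per cell cannot be told apart. Of the cell type markers, the 7 pluripotency and 7 primed markers were at 643 to 20744 reads in each library. Of the pluripotency markers, 3 had a counting interval above 0 and 1 below it. Of the primed markers, 1 was above and 2 were below, and none of either list was past 1.5-fold. NANOG went from 643 to 847 reads (log2 ratio 0.24, interval 0.09 to 0.39) and DPPA4 from 4745 to 4953 (log2 ratio -0.10, interval -0.16 to -0.04). Of the 7 naive markers KLF17, DPPA5 and ARGFX were at 0 and none was above 105 reads. The 12 markers of differentiated or other cells summed to 26017 reads in control and 27126 with vitC, and of the 9 with at least 100 reads 3 had a counting interval above 0, 2 below it, and 2 were past 1.5-fold, beside 30.1% and 2.53% of all genes with at least 100 reads. PAX6, a neural factor, went from 75 to 164 reads (log2 ratio 0.97) and MIXL1, a mesendoderm factor, from 38 to 82 (log2 ratio 0.95). The collagen genes COL1A1, at 18164 and 18881 reads, and COL1A2, at 6443 and 6542, had lower shares with vitC (log2 ratios -0.11, interval -0.14 to -0.08, and -0.14, interval -0.19 to -0.09), and CDX2 was at 0. The part of such cells in the values below was not tested.

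The LTR class as a whole differed little between the libraries. It held 93607 counts in control and 100913 with vitC, which is 18.4% of all subfamily counts in both (log2 ratio -0.01, interval -0.02 to 0.01). Scaled by the aligned library size or by the median ratio instead, it was -0.02 or -0.01, with intervals of -0.03 to -0.00421 and -0.03 to -0.00212 that lie just below 0. ERV1 was the largest family and the one whose share was lower with vitC. It went from 56208 to 59613 counts, a log2 ratio of -0.03 (interval -0.05 to -0.01), which is a change of share from 11.1% to 10.8%. ERVL, with 9178 and 10291 counts, had a higher share with vitC, at a log2 ratio of 0.05 (interval 0.01 to 0.09), but scaled by the aligned library size the interval, -0.00109 to 0.08, included no difference. ERVK (4727 and 5268 counts, log2 ratio 0.04, interval -0.02 to 0.10) and ERVL-MaLR (21551 and 23601 counts, log2 ratio 0.02, interval -0.01 to 0.04) had intervals that include no difference. The other families together held 1943 and 2140 counts.

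The lower ERV1 share lay in HERVH. HERVH-int and the LTR7 names had a log2 ratio of -0.07 (interval -0.09 to -0.05), whereas the rest of ERV1 went from 21319 to 23579 counts, and its log2 ratio of 0.03 had an interval just above 0, up to 0.06. Its lower limit, 0.00339, is smaller than the downward shifts under median ratio scaling (0.0082) and aligned library size (0.0103). The interval therefore does not stay above 0 under either. All LTR subfamilies other than HERVH-int and the LTR7 names went from 58718 to 64880 counts, also at 0.03 (interval 0.01 to 0.04).

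**Figure D1:**
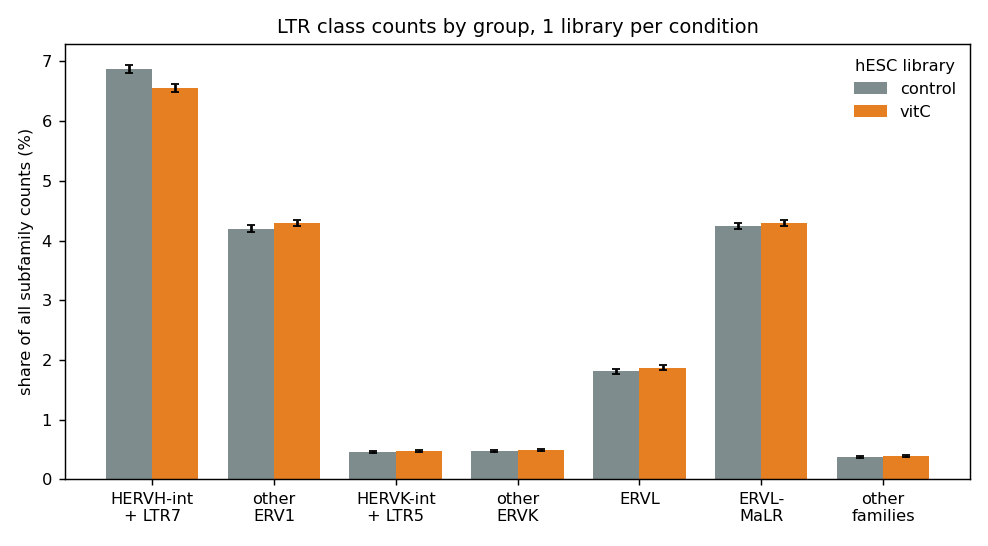
Share of all subfamily counts (%, y axis, from 0) held by each LTR group in the control and the vitC library, with exact 95% counting intervals as error bars. The bars for HERVH-int with LTR7 are the tallest, at 6.87% in control and 6.55% with vitC, and the only pair in which the vitC bar is clearly the shorter.

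The families also differed in their counts per annotated copy. ERVK had 431 counts per 1000 annotated copies in control and 481 with vitC, and ERV1 had 320 and 339. Without HERVH-int and the LTR7 names, ERV1 had 128 and 142. Without HERVK-int and the LTR5 names, ERVK had 259 and 291. ERVL, at 56.6 and 63.4, and ERVL-MaLR, at 61.5 and 67.3, were lower, although ERVL-MaLR has 48.0% of the LTR copies. These are raw counts per copy and not per length, and the vitC library was the larger. They pool all annotated copies of a family. Reads of copies inside other transcripts were not set apart, nor was the spread of counts over copies. For L1 measured by RT-qPCR, the study names elements that overlap genes, and pervasive transcription, as confounders. Internal parts, 13.9% of the LTR copies, held 48.0% of the LTR counts in control and 47.3% with vitC, most of it HERVH-int.

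HERVH-int, the internal part of HERVH, had more counts than any other row of the repeat table, at 29168 in control and 30247 with vitC. It made up 31.2% of the LTR counts in control from 0.805% of the LTR copies, and 5.75% of all subfamily counts in control and 5.50% with vitC. Because the vitC library was larger, the higher count was a lower share, with a log2 ratio of -0.06 (interval -0.09 to -0.04). On uniquely mapped reads, which were 87.1% of its counts in control, the ratio was -0.07 (interval -0.09 to -0.04). Its FPKM, the fragments per kilobase scaled by library size, as deposited, was 2376 in control and 2233 with vitC, and it was the highest of all LTR subfamilies.

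LTR7, the terminal repeat that drives HERVH, ranked 2 in counts among the LTR subfamilies and 22 among all rows. It had 5336 counts in control and 5395 with vitC, a log2 ratio of -0.10 (interval -0.15 to -0.04), and its FPKM was 991 and 931. The other LTR7 names were minor. LTR7Y, a form reported in the HERVH copies of early embryonic cells, had 196 and 177 counts (log2 ratio -0.26, interval -0.56 to 0.04). LTR7B had 143 and 154 counts (log2 ratio 0.00, interval -0.35 to 0.33), and LTR7C had 46.5 and 59.9 (log2 ratio 0.25, interval -0.31 to 0.85). LTR7A, with 15 annotated copies, had 0 counts in both libraries, which allows a share of up to 0.000591% in control and 0.000546% with vitC. The 3 minor names with counts thus had ratios of either sign, each with an interval that includes 0. Together the LTR7 names went from 5721 to 5787 counts, at a log2 ratio of -0.10 (interval -0.15 to -0.05). There were 5.10 HERVH-int counts for each LTR7 count in control and 5.23 with vitC, a log2 change of 0.04 (interval -0.02 to 0.09), so the internal part and its LTRs kept the same proportion within counting error.

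HERVK, the youngest ERV group of the human genome, was far less abundant and showed no change beyond counting error. HERVK-int, with 270 annotated copies, had 713 counts in control and 738 with vitC, a log2 ratio of -0.06 (interval -0.22 to 0.09). LTR5_Hs, the youngest of its LTRs, had 440.0 and 462 counts (log2 ratio -0.05, interval -0.24 to 0.15). LTR5B, an older LTR, had more counts than the internal part, at 1006 and 1183, and its log2 ratio was 0.12, with an interval up to 0.24 that just includes 0. LTR5A had 170 and 193 counts (log2 ratio 0.07, interval -0.24 to 0.37), and the row named LTR5 had 0 and 1, for which no ratio is given. The LTR5 names together went from 1616 to 1839 counts, a log2 ratio of 0.07 (interval -0.03 to 0.17). HERVK-int and LTR5_Hs are among the subfamilies whose reads map to several copies most often, with 68.9% and 68.4% of their control counts uniquely mapped, against 90.0% over the LTR class.

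**Figure D2:**
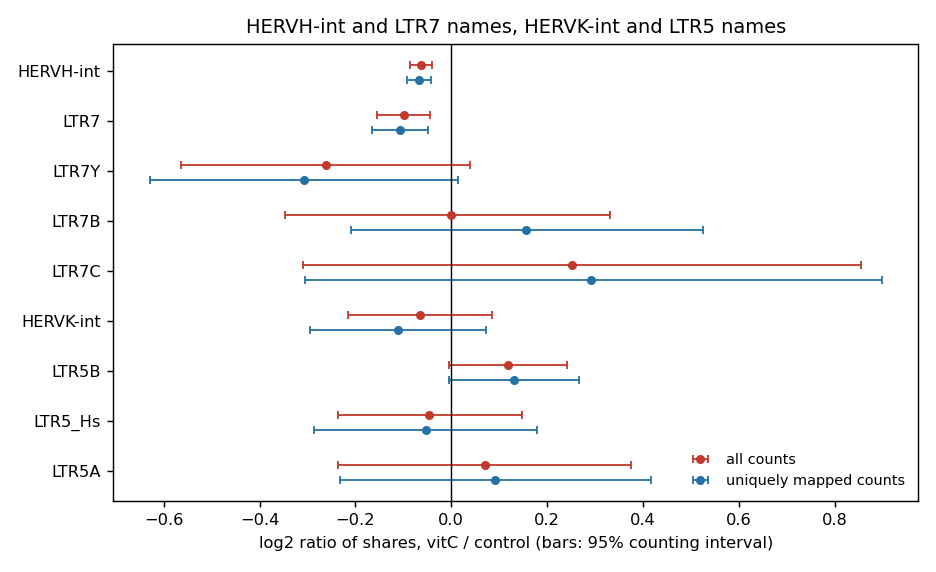
Log2 ratio of shares, vitC over control (x axis), for each HERVH-int, LTR7, HERVK-int and LTR5 name with counts in both libraries, on all counts and on uniquely mapped counts, with exact 95% counting intervals as bars. The bars of HERVH-int and LTR7 lie below 0 on both measures, and every other bar crosses 0.

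The leading subfamilies of the families showed small differences. In ERV1, LTR12C, an LTR of the HERV9 group, followed HERVH-int and LTR7 with 1397 counts in control and 1664 with vitC, a log2 ratio of 0.14 (interval 0.03 to 0.24). HERV9NC-int, an internal part of the same group, went from 488 to 612 counts, at 0.21 (interval 0.04 to 0.39), though on uniquely mapped counts the interval was -0.02 to 0.39. In ERVK, LTR13 had 476 and 442 counts, a log2 ratio of -0.22 (interval -0.41 to -0.03), though on uniquely mapped counts the interval was -0.39 to 0.02. In ERVL the leading subfamilies were MER21C (543 and 522 counts, log2 ratio -0.17, interval -0.35 to 0.00391, and -0.43 to -0.05 on uniquely mapped counts), MER21A (427 and 508, log2 ratio 0.14, interval -0.05 to 0.33) and LTR33 (360 and 410, log2 ratio 0.07, interval -0.14 to 0.28). In ERVL-MaLR they were MLT1D, MLT1K and MLT1C, old repeats with 20869, 17517 and 19794 copies, whose log2 ratios lay between -0.03 and 0.01.

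Some subfamilies gave many counts per copy, most of them with few copies, though HERVH-int has 5879. HERVI-int had 11.9 counts per annotated copy in control and 12.1 with vitC, from 85 copies. HERVH-int followed with 4.96 and 5.14, HERVIP10B3-int with 4.68 and 4.95, LTR21A with 4.36 and 5.16, and HERVK-int with 2.64 and 2.73. Among these, HERVI-int, HERVIP10B3-int and LTR21A had log2 ratios of -0.09, -0.03 and 0.13, and each interval included 0. Counts were concentrated: HERVH-int and LTR7 held 36.1% of the LTR counts summed over both libraries, and the leading 10 subfamilies held 47.2%.

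For single subfamilies, a minimum of 100 counts over both libraries was set, and 238 of the 587 LTR members passed it, as did 576 of all 1355 subfamilies. The LTR members that passed held 94.3% of the LTR counts. Of the rest, 20 had no count in either library and 329 had counts below the minimum. By family, 106 ERV1, 19 ERVK, 56 ERVL, 52 ERVL-MaLR and 5 other subfamilies passed. The median log2 ratio was 0.04 over the 238 LTR subfamilies and 0.01 over all 576. It was -0.01 in ERV1, 0.16 in ERVK, 0.04 in ERVL and 0.05 in ERVL-MaLR, and 14 of the 19 ERVK subfamilies were above 0, beside 52.3% of all subfamilies. On FPKM the ERVK median was 0.03 and the ERV1 median 0.01. Over subfamilies with at least 1000 counts the medians were 0.03 in ERVK, -0.17 in ERVL (MER21C alone) and -0.01 in ERVL-MaLR.

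Past 1.5-fold in either direction were 6 of the 238 LTR subfamilies (2.52%), beside 10 of all 576 (1.74%). Higher with vitC were 4 of the 6, and among all 576 there were 5 higher (0.868%) and 5 lower (0.868%). All had fewer than 400 counts over both libraries. A counting interval away from 0 was found for 23 of the 238 (9.66%), 15 higher and 8 lower, beside 57 of the 576 (9.9%), of which 30 were higher (5.21%) and 27 lower (4.69%). An interval at 95% leaves out the true value for 5% of the subfamilies from counting alone, and the spread between cultures is not in it.

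**Figure D3:**
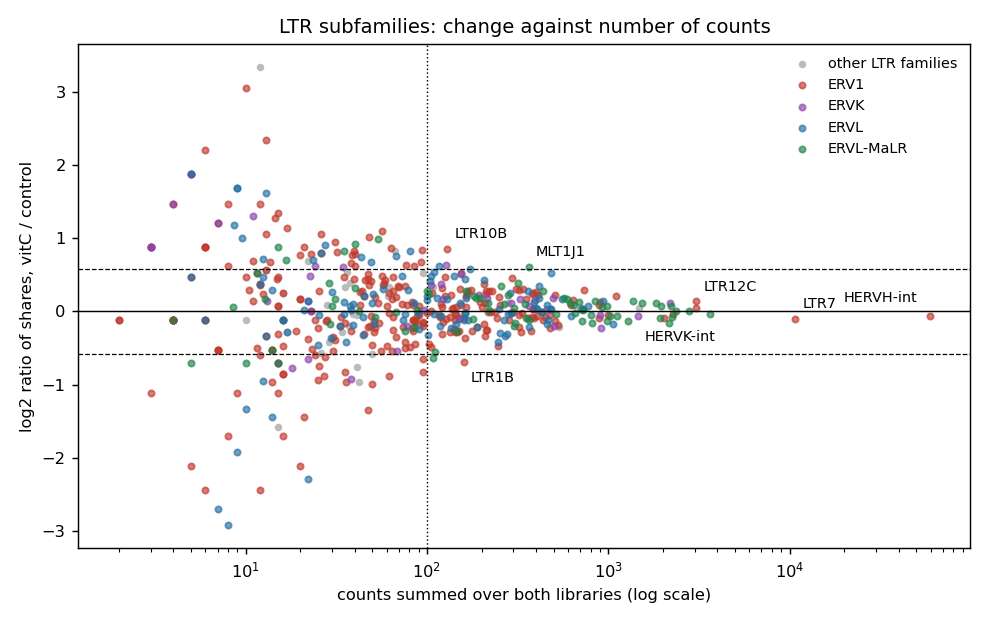
Log2 ratio of shares, vitC over control (y axis), against counts summed over both libraries (x axis, log scale) for the LTR subfamilies with counts in both libraries, coloured by family. The dotted line marks the minimum of 100 counts and the dashed lines 1.5-fold in either direction. The scatter narrows as counts grow, and HERVH-int and LTR7 stand at the right end just below 0.

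Of the 6 past 1.5-fold, LTR10B, an ERV1 LTR with 70 annotated copies, went from 43.6 to 85.6 counts, a log2 ratio of 0.86 (interval 0.31 to 1.41). MER9a2, an ERVK LTR, went from 47.5 to 79.6 counts (log2 ratio 0.63, interval 0.09 to 1.17). LTR33C, an ERVL LTR, went from 44 to 73 (log2 ratio 0.62, interval 0.06 to 1.19). MLT1J1, a MaLR LTR with 5004 copies, went from 138 to 226 counts (log2 ratio 0.60, interval 0.28 to 0.91). On the lower side, LTR1B, an ERV1 LTR, went from 95.8 to 64 counts (log2 ratio -0.70, interval -1.18 to -0.23), and MLT1F-int, a MaLR internal part, from 63.4 to 44 (log2 ratio -0.64, interval -1.22 to -0.05). They belong to all 4 main families and include LTRs and an internal part. MER74B, an ERVL LTR, came next among the higher ones, with 65.8 and 107 counts and a log2 ratio of 0.58 that falls just short of 1.5-fold. MLT1H-int, MER67A and LTR35 came next among the lower ones, at -0.55, -0.49 and -0.48.

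Among the 23 with an interval away from 0, some related names stood together and others did not. LTR41 and LTR41B, both ERVL LTRs, had log2 ratios of 0.35 (174 and 239 counts in control and vitC) and 0.53 (190 and 296 counts). LTR33B, at 84.4 and 123 counts, was at 0.43, but its interval on uniquely mapped counts was -0.16 to 0.70, and LTR33A_, of the same name group as LTR33C, was at -0.34 (interval -0.69 to 0.03). LTR10B1, at 219 and 218 counts, was at -0.12 (interval -0.40 to 0.16), unlike LTR10B. HERVH-int and LTR7 were both lower, on all counts and on uniquely mapped counts. LTR12C and HERV9NC-int were both higher on all counts. The 7 LTR12 names together went from 1624 to 1890 counts, at 0.10 (interval 0.01 to 0.20). LTR12C, at 1397 and 1664, held most of these, and the other LTR12 names together had slightly fewer counts with vitC. The other subfamilies with higher shares were LOR1-int, MER57B2 and PABL_B-int of ERV1, HERVK11-int of ERVK and MLT1H1 of ERVL-MaLR, and the other lower ones were LTR35, MLT2C1 and MLT1A0. These were picked out by the same values, so their number is a description. On uniquely mapped reads all 23 had the same sign, and 19 had an interval away from 0 again.

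Internal parts were next set beside the LTR names of the same group. The LTR rows pool all annotated copies, so solitary LTRs are counted with those that flank an internal part. Of 20 pairs of internal and LTR names, 16 had at least 100 counts on each side. The internal part had the larger number of counts per copy in 14 of the 16 and more counts in 3. Its summed FPKM was the higher in 1, which was HERVH. FPKM was summed over the names of each side, which differ in number, so the sum is not a level per length. Counts per copy are not scaled by length either, so the 14 pairs do not compare levels. The log2 ratio was above 0 for 10 internal parts and 9 groups of LTRs, with the same sign on both sides in 7 of the 16 pairs. Counts of the internal part per LTR count changed beyond the counting interval in 2 pairs. For HERV17-int, the internal part of the HERV-W group, counts went from 88 to 74 while LTR17 went from 132 to 176, a log2 change of the proportion of -0.67 (interval -1.22 to -0.11). HERVK9-int went from 257 to 243 counts while the MER9 LTRs went from 196 to 263, a log2 change of -0.50 (interval -0.87 to -0.13). The interval of HERVK9-int by itself, -0.45 to 0.06, included 0, and that of the MER9 LTRs, 0.04 to 0.58, did not. Those of HERV17-int, -0.83 to 0.10, and LTR17, -0.03 to 0.64, both included 0. On FPKM, HERVK9-int went up, from 30.9 to 32.1, and the MER9 LTRs from 49.3 to 59.5. HERV17-int went from 26.9 to 18.1 and LTR17 from 28.9 to 38.4.

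**Figure D4:**
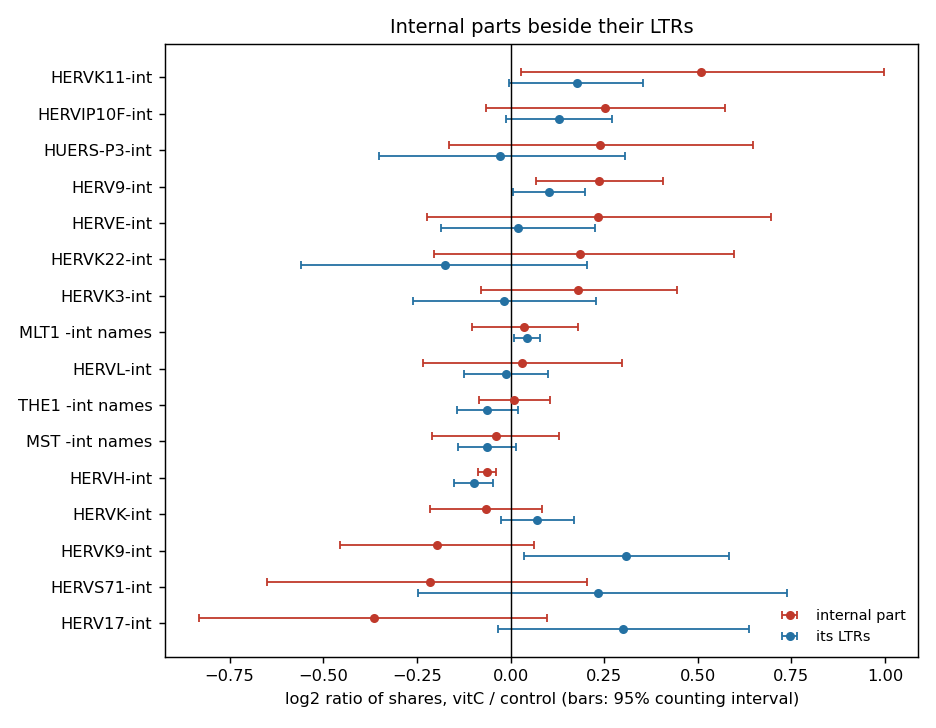
Log2 ratio of shares, vitC over control (x axis), of the internal part and of its LTRs for the 16 pairs, ordered by the internal part, with exact 95% counting intervals. HERV9-int, HERVIP10F-int and the THE1, MST and MLT1 rows are sums over several -int names. HERVH has the narrowest bar among the internal parts, and both its bars lie below 0. HERV17 and HERVK9 have the internal part on the left and the LTRs on the right.

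The FPKM values do not follow the counts for every subfamily. For 46 of the 238 LTR subfamilies, FPKM and the share of counts moved in opposite directions, but for none of the 23 with an interval away from 0. The length that FPKM and counts together imply differed between the libraries, by over 1.5-fold for 1 subfamily, so FPKM is not counts over a fixed length here. Uniquely mapped reads were a median of 94.7% of the control counts over the 238, and the lowest shares were 35.6% for LTR25 and 57.2% for LTR90A.

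The genes with an ERV history gave a readout from another file, on reads recovered per gene. The control library held 15367652 gene reads and the vitC library 17188555. Of 12125 genes with at least 100 reads over both, 2.53% were past 1.5-fold in either direction and 30.1% had a counting interval away from 0, with a median log2 ratio of 0.02.

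Among the 7 genes listed as linked to HERVH, ESRG, a long noncoding RNA known as a marker of hESCs, was by far the most abundant, with 5582 reads in control and 5985 with vitC. Its log2 ratio was -0.06 (interval -0.11 to -0.01), the same to 2 decimals as that of HERVH-int in the repeat table, whose counts may include the same reads. SCGB3A2, a secretoglobin gene, had 390 and 419 reads (log2 ratio -0.06, interval -0.26 to 0.14). HHLA1, named for its association with a HERVH LTR, went the other way, from 220 to 300 reads, at 0.29 (interval 0.03 to 0.54). HHLA3 had 89 and 84 reads, LINC-ROR, a long noncoding RNA first described in reprogrammed cells, 20 and 34, and ABHD12B, an abhydrolase gene, 23 and 20, each with an interval that includes 0. HHLA2, an immune checkpoint ligand, had 0 in both. Thus ESRG and HHLA1 were the only ones of the 7 with an interval away from 0, in opposite directions, and none of the 4 that passed the minimum was past 1.5-fold.

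Of 11 genes that derive from ERVs, 9 are in the table. ERVK3-1 had 710 reads in control and 832 with vitC (log2 ratio 0.07, interval -0.08 to 0.21). ERVMER34-1, which encodes an envelope protein, had 176 and 196 (log2 ratio -0.01), and ERV3-1, also an envelope gene, had 109 and 112 (log2 ratio -0.12). ERVH48-1, which encodes a secreted envelope known as suppressyn, had 68 and 58 (log2 ratio -0.39, interval -0.92 to 0.14), and ERVK13-1 had 48 and 53. The placental syncytin genes ERVW-1 and ERVFRD-1, and ERVV-1 and ERVV-2, had 0 reads in both libraries. None of the 5 that passed the minimum had an interval away from 0. How reads that map to several copies were given to these genes is not stated in the sources used here.

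**Figure D5:**
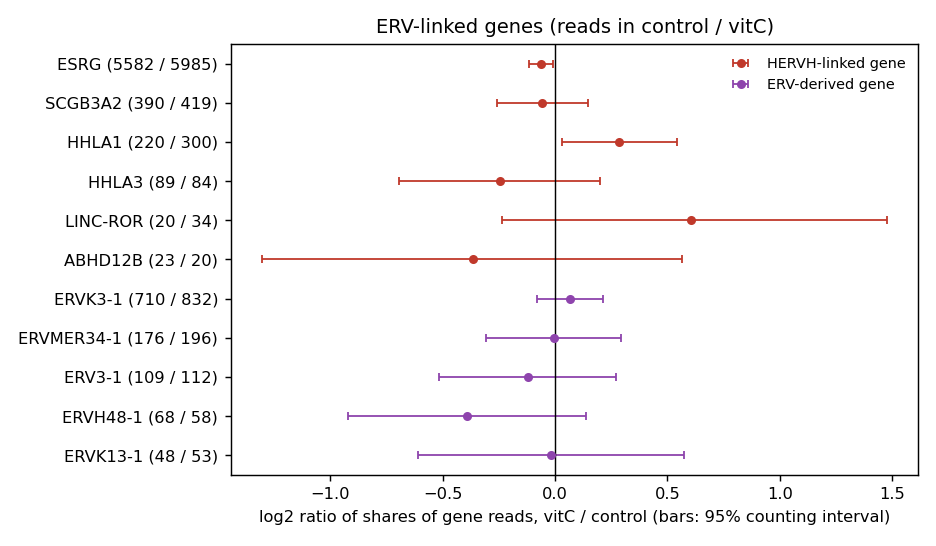
Log2 ratio of the share of gene reads, vitC over control (x axis), for the genes linked to HERVH and the genes derived from ERVs that had reads, with exact 95% counting intervals and the reads of both libraries beside each name. ESRG lies just below 0 and HHLA1 above 0, and the bars of all others cross 0.

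Genes that silence ERVs were measured alongside, in 1 list with the KDM4 and TET genes, which encode demethylating dioxygenases. Of 24 listed, 23 passed the minimum and EHMT2 was listed without reads. None was past 1.5-fold, 7 had an interval below 0 and 1, UHRF1, above it, beside 30.1% of all genes in either direction. The 7 included TET1 (log2 ratio -0.11, interval -0.22 to -0.00465) and TET3 (log2 ratio -0.16, interval -0.31 to -0.01), which act against DNA methylation. TRIM28, the corepressor that KRAB zinc finger proteins bring to ERVs, had 13705 and 14771 reads (log2 ratio -0.05, interval -0.09 to -0.02). SETDB1, the H3K9 methyltransferase it recruits, had 765 and 881 (log2 ratio 0.04, interval -0.10 to 0.18). DNMT1, the maintenance DNA methyltransferase, had 3854 and 4093 (log2 ratio -0.07, interval -0.14 to -0.01). The H3K9 demethylase genes KDM4A, KDM4B and KDM4C, which encode dioxygenases of the kind vitC assists, had log2 ratios of 0.03, 0.00 and -0.10, each with an interval that includes 0.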

How the data were processed

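RNA-seq libraries of 1 control and 1 vitC-treated hESC culture were analysed, grouped by their labels. The labels name polyA RNA, a directional kit and either rRNA depletion or mRNA isolation, and the study's methods name rRNA depletion. Mapping (to hg38) and counting were done by the authors in SQuIRE (version not given in the sources used here). Per the submitters' processing notes, Trim Galore, HISAT2 and DESeq2 were also used. The authors deposited, per subfamily, expected counts (multi-mapped reads shared among copies), uniquely mapped counts, the aligned library size, the number of copies and FPKM, and, per gene, values after a variance-stabilising transformation, close to a log2 scale. The mouse libraries and 2 other columns of the repeat table were not used.

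Expected counts were used unrounded in shares and log2 ratios. They were rounded to whole counts for the exact Clopper-Pearson interval of the vitC part of a subfamily's counts at 95%. Intervals of proportions between an internal part and its LTRs use a normal approximation on the log scale. The reads carry no molecular identifiers and may repeat a molecule, so intervals and limits (3 counts for a count of 0) cover counting error only. Inverting the transformation, with the smallest step taken as 1 read, gave whole numbers within 0.01 for 100% of the gene values above the lowest, a check chosen after seeing the data. A sequence result is not reported here. Python 3.11.15, numpy 2.4.6, pandas 2.3.3 and scipy 1.17.1 were used, and the interval was tested on simulated data.

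Named subfamilies were the HERVH-int, LTR7, HERVK-int and LTR5 names, the 3 with most counts in each main family, and the 5 LTR subfamilies with the largest higher and the 5 with the largest lower ratio among those with at least 100 counts, plus the lists of genes. HERV9NC-int, LTR41, LTR41B, LTR33B, LTR33A_, LTR10B1 and the other names with an interval away from 0, those highest in counts per copy or lowest in uniquely mapped share, and HERV17-int and HERVK9-int, were named after their values were seen. Members and lists were chosen with earlier results of these data known. The alternatives were uniquely mapped counts, the aligned library size, median ratio scaling, LINE, SINE, LTR and DNA classes only, FPKM, other count minimums and other folds.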

Additional observations from a re-analysis of the deposited data

How the results depend on the processing

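The point values of the LTR class, the 4 families and the HERVH and HERVK names stayed inside their counting intervals on uniquely mapped counts, aligned library size, median ratio scaling, and LINE, SINE, LTR and DNA classes only. On FPKM, ERVL-MaLR moved to -0.0113 and HERVH-int to -0.0899, and the others stayed inside. Intervals changed sides of 0 for the LTR class, which was below 0 under aligned library size and median ratio scaling (-0.0171 and -0.0150), and for ERVL, which included 0 under aligned library size (0.0396). No family or named subfamily with an interval away from 0 changed sign in the alternatives run. The median of all subfamilies moved by 0.01 on the log2 scale under median ratio scaling and under aligned library size.

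Counts of subfamilies depended on the minimum and the fold. Past 1.5-fold, 4 were higher and 2 lower. On FPKM these were 8 and 5, with no count minimum (at least 1 count in each library) 74 and 46, and with at least 1000 counts 0 and 0. At a smaller fold, 0.32 on the log2 scale, there were 23 higher and 10 lower, and at a fold of 2 there were 0 and 0. Intervals away from 0 were 15 higher and 8 lower. With no count minimum they were 27 and 17, and with at least 1000 counts 2 and 3. The median log2 ratio of the LTR subfamilies, 0.04, was 0.0280 under aligned library size, 0.0301 under median ratio scaling, 0.0264 on FPKM and -0.0319 with at least 1000 counts. The ERVK median of 0.16 was 0.13 on uniquely mapped counts, 0.0280 on FPKM and 0.0269 with at least 1000 counts, where the ERVL median turned to -0.17 and that of ERVL-MaLR to -0.0118. The ERV1 median turned to 0.0106 on FPKM. For genes, the median difference on the deposited scale was -0.00352 for ERV-derived and -0.0227 for HERVH-linked genes, and -0.0186 and -0.0595 on recovered reads, an alternative chosen after seeing the data. The cause of these shifts was not tested.

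Depth limits single subfamilies, and with 1 library per condition no leave-one-out value exists and the spread between cultures is unknown. No paired analysis was possible because there is 1 control and 1 vitC library, which share a number in their labels, so a single pair has no spread.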
